A study of Mus musculus with 6 samples.

Results

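The genes described here are 10 genes of muscle energy metabolism, *Fbp2*, *Fabp3*, *Ckm*, *Ckmt2*, *Pygm*, *Pfkm*, *Pgam2*, *Eno3*, *Cpt1b* and *Pdk4*, out of 44556 genes counted by RNA-seq in newborn mouse skull. The list was chosen from *Fbp2* and *Fabp3*, which were picked because their counts were lower in the genotype comparison described below, and 8 further genes of muscle fuel use were set beside them. For *Fbp2* and *Fabp3* the difference between genotypes is therefore a description and carries no test.

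The tissue was parietal bone, a flat bone of the skull vault, collected from newborn C57BL/6 littermates. The 3 control libraries came from OsxCre mice and the 3 others from mice labelled OsxCre;Stat3fl/fl. Both genotypes carried the OsxCre transgene, in which Cre recombinase is driven by the promoter of Osterix, a transcription factor of osteoblast precursors, and only the second carried floxed alleles of *Stat3*, a transcription factor that relays cytokine signals. Whether Cre acted in muscle of the dissected tissue was not measured. Gene counts summed to between 8193651 and 12080044 in a library, and levels are given as CPM, the usual scaling of counts to a common library size, after adjustment by the trimmed mean of M values (TMM), with 3 libraries per genotype. The detection floor of 3 counts corresponded to between 0.248 and 0.366 CPM, which covers counting error only.

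*Stat3* itself was not lower in the libraries labelled OsxCre;Stat3fl/fl. It measured 149, 134 and 141 CPM in OsxCre libraries 1, 2 and 3, and 152, 154 and 155 CPM in the libraries labelled OsxCre;Stat3fl/fl, so that the log2 fold change was 0.12 with a standard error (SE) of 0.07 (adjusted p 0.442). Counts over a whole gene need not fall when only some exons are removed, or when few of the cells in the tissue express Cre, so this value does not check the labels. The genotypes below are those of the labels. Every library held between 7333 and 12392 counts of *Xist* and 0 of the Y-linked *Ddx3y* and *Kdm5d*. The Y-linked *Eif2s3y* and *Uty* had 1 count each in library 2 labelled OsxCre;Stat3fl/fl and 0 in every other library. The study describes its newborns as males, and these values go against that description.

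Muscle fibres draw their ATP from several connected stores. Creatine kinase returns phosphate from phosphocreatine to ADP at once, glycogen phosphorylase releases glucose units that glycolysis breaks down, and mitochondria oxidise fatty acids when work is long or food is scarce. Many of these steps are carried out by a muscle isoform of an enzyme that other tissues make from a different gene, and the muscle isoforms are common markers of muscle in a mixed tissue. In bulk tissue, fewer cells of a type and less RNA in each cell cannot be told apart.

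The 10 genes lie on 7 chromosomes of the GRCm38.p6 assembly as RefSeq places them, and *Pgam2* and *Eno3* share chromosome 11 with *Stat3* at distances of 95.1 and 30.2 *Mb*. RefSeq holds the start region of 9 of them, all but *Cpt1b*, and the 250 bases before the start are printed for 4, the pair that was lower and the creatine kinase pair whose libraries lay higher. Capitals mark the E-box CAGCTG, a site read by muscle regulatory factors, and TTCNNNGAA, the core of STAT sites, each searched on both strands. *Fbp2* (chr13:62858401-62858650, minus strand), *Fabp3* (chr4:130308488-130308737, plus strand), *Ckm* (chr7:19410844-19411093, plus strand) and *Ckmt2* (chr13:91876886-91877135, minus strand) read as follows, 5′ to 3′.
Fbp2: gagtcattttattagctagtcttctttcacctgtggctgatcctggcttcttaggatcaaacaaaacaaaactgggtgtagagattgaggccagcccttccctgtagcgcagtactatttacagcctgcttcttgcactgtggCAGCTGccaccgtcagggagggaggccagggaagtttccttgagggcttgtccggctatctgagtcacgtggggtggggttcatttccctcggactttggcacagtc
Fabp3: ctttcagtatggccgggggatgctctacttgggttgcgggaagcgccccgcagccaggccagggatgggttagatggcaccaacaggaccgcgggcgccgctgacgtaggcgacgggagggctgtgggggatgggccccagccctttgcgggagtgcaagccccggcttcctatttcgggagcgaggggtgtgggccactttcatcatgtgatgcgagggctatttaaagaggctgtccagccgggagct
Ckm: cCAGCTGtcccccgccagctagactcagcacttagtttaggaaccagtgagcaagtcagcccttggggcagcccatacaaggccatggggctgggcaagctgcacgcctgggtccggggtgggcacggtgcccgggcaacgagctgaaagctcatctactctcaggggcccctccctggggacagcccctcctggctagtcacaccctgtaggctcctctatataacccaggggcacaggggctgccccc
Ckmt2: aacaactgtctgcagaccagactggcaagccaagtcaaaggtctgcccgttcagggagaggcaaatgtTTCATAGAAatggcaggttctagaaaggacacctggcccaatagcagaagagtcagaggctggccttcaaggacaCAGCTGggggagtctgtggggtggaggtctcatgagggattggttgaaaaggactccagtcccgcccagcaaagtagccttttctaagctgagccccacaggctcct
The CAGCTG of *Fbp2* and that of *Ckmt2* both lie at bases -107 to -102 from the start, and that of *Ckm* at -249 to -244. The stretch of *Fabp3* holds neither of the marked motifs. Over all 9 genes, which have 12 starts in RefSeq, 5 hold CAGCTG (*Fbp2*, *Ckm*, *Ckmt2*, *Pygm* and *Pgam2*). Counted by start, 5 of the 12 hold it, against 13% of the 32851 start regions of the same length in the RefSeq table. The looser E-box CANNTG, which includes CAGCTG, is in all 9 genes, in 11 of the 12 starts and in 66.2% of all start regions. TTCNNNGAA is in 2 of the 9, *Ckmt2* and 1 of the 4 RefSeq starts of *Pfkm*. By start this is 2 of the 12, against 7.02% of all. A MEF2 motif is in *Pgam2* alone, 1 of the 12 starts, and in 2.92% of all start regions. AGGTCA is in *Pfkm* and *Eno3*, at 2 of the 12 starts, and in 14.0% of all. Neither TNAAGGTCA (1.14% of all) nor TATAAA (12.4% of all) is in any of the 9. These matches describe letters in a window and are not binding sites. The part of these motifs in the levels of the genes was not tested.

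All 10 genes passed the filter on low counts. Compared with OsxCre, *Fbp2* and *Fabp3* were lower in the libraries labelled OsxCre;Stat3fl/fl, *Ckm*, *Ckmt2* and *Eno3* lay higher in every library without passing the test, and *Pygm*, *Pfkm*, *Pgam2*, *Cpt1b* and *Pdk4* overlapped between genotypes. The genes called lower by edgeR's quasi-likelihood test at an adjusted p under 0.05 were 2 of 10, the pair that the list was chosen from, where 0.481% of the 15600 genes tested were called lower. None of the 10 was called higher, where 0.776% of all genes were. At an unadjusted p under 0.05 the same test counted 2 of the 10 as lower and 3 as higher, with 8.34% and 8.03% of all genes on these sides. The ranges of the 3 libraries lay apart on the lower side for 2 of the 10, where this held for 12.2% of all genes, and on the higher side for 3 of the 10, where it held for 10.8%. The median log2 fold change over the 10 was 0.07, beside 0 over all genes tested.

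**Figure D1:**
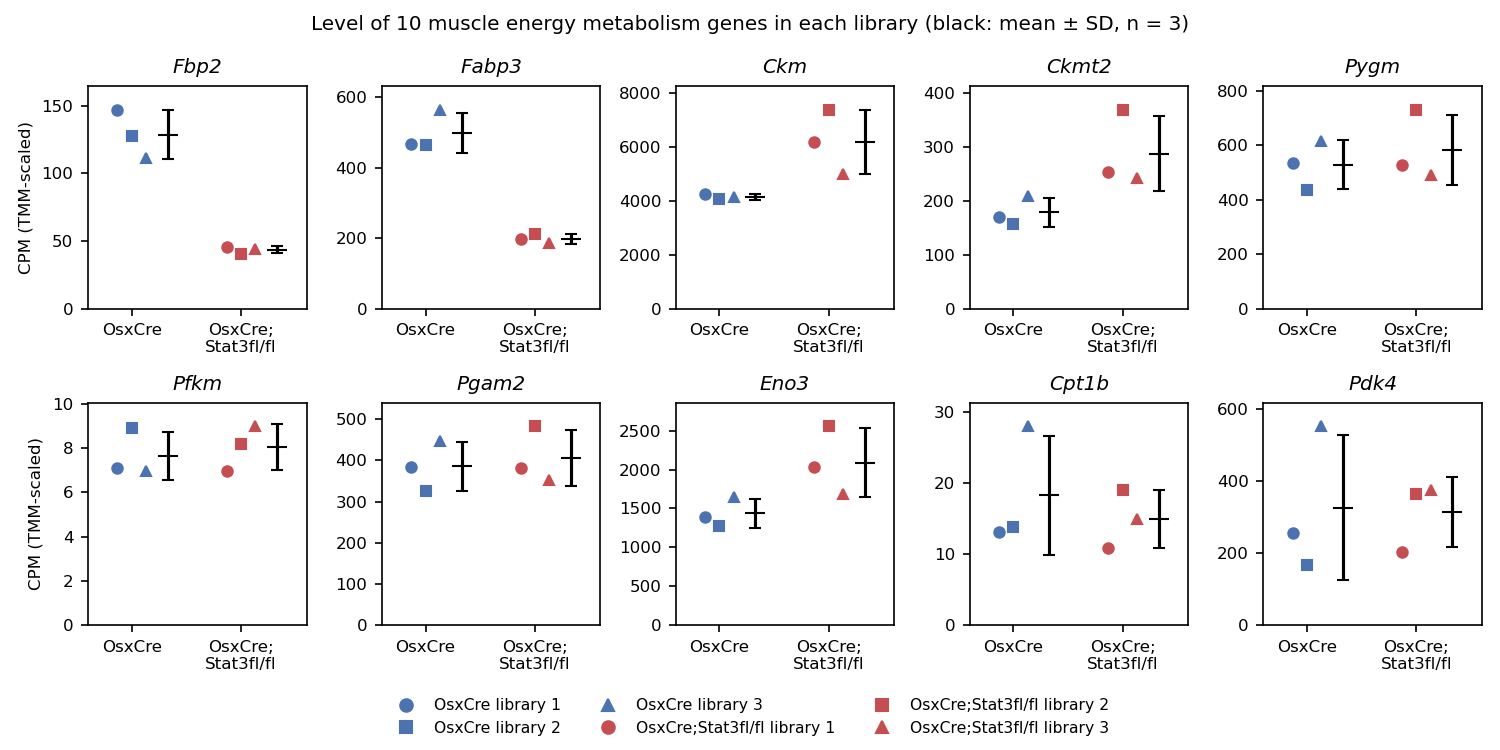
Level of each of the 10 genes in each library, in TMM-scaled CPM on a linear axis from 0, with OsxCre in blue and OsxCre;Stat3fl/fl in red, the marker shape giving the library number and black bars the mean ± SD (n = 3). Fbp2 and Fabp3 are lower in all 3 red libraries, Ckm, Ckmt2 and Eno3 are higher in all 3, and the other genes overlap.

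*Fbp2* encodes the muscle form of fructose-1,6-bisphosphatase, which runs the committed step of glycolysis backwards and so lets muscle rebuild glycogen from lactate. It measured 147, 128 and 111 CPM in OsxCre libraries 1, 2 and 3, and 45.3, 40.5 and 44.4 CPM in the libraries labelled OsxCre;Stat3fl/fl. The lowest control library thus lay well above the highest of the others. The means were 129 ± 18.0 and 43.4 ± 2.57 CPM (SD, n = 3), a 2.96-fold lower level and a log2 fold change of -1.57 (SE 0.11). The counts behind these values were between 1291 and 1550 in the controls and between 331 and 381 in the others, far above the smallest detectable count.

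*Fabp3* encodes heart-type fatty acid-binding protein, which carries fatty acids through the cytosol of heart and skeletal muscle fibres. It measured 466, 463 and 564 CPM in OsxCre libraries 1, 2 and 3, and 197, 212 and 185 CPM in the libraries labelled OsxCre;Stat3fl/fl. The genotypes did not overlap here either. The means were 498 ± 57.3 and 198 ± 13.9 CPM (SD, n = 3), a log2 fold change of -1.33 (SE 0.11). In both genes the spread among the libraries labelled OsxCre;Stat3fl/fl was the smaller one, with coefficients of variation of 5.92% for *Fbp2* and 7.0% for *Fabp3* against 14.0% and 11.5% in the controls. The 3′ end of *Fabp3* overlaps the neighbouring gene *Zcchc17*, and the labels name a library kit that does not mark strand, so reads from the overlap cannot be assigned.

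The 2 creatine kinases lay on the other side. *Ckm*, the cytosolic muscle creatine kinase and the most abundant of the 10, measured 4262, 4059 and 4135 CPM in OsxCre libraries 1, 2 and 3, and 6196, 7384 and 4988 CPM in the libraries labelled OsxCre;Stat3fl/fl. Its means were 4152 ± 102 and 6189 ± 1198 CPM (SD, n = 3), 1.49-fold higher, with a log2 fold change of 0.58 (SE 0.15) and an adjusted p of 0.127. Although no library overlapped, the difference did not pass the test over all genes, and the libraries labelled OsxCre;Stat3fl/fl spread far more widely than the controls. *Ckmt2*, the mitochondrial creatine kinase of sarcomeric muscle, measured 170, 158 and 210 CPM in the controls and 254, 369 and 242 CPM in the others. Its log2 fold change was 0.68 (SE 0.18), with an adjusted p of 0.123, so that it too was higher in every library and short of the threshold. With DESeq2 in place of edgeR the adjusted p was 0.00079 for *Ckm* and 0.00296 for *Ckmt2*, while limma-voom called neither. *Ckm* also overlaps a long non-coding RNA, *A930016O22Rik*.

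Among the glycolytic genes, *Eno3* differed from *Pygm*, *Pfkm* and *Pgam2*. *Eno3*, the muscle enolase, measured 1391, 1277 and 1647 CPM in OsxCre libraries 1, 2 and 3, and 2034, 2557 and 1683 CPM in the libraries labelled OsxCre;Stat3fl/fl. The highest control and the lowest of the others were close, and the log2 fold change of 0.54 (SE 0.17) had an adjusted p of 0.178 with edgeR and 0.013 with DESeq2. *Eno3* overlaps *Pfn1* at its start, so some of its reads could belong to either gene.

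*Pygm*, the muscle glycogen phosphorylase that starts glycogen breakdown, measured 534, 434 and 614 CPM in the controls and 528, 729 and 490 CPM in the others. The ranges overlapped in part, and the log2 fold change was 0.14 (SE 0.18), with an adjusted p of 0.76. *Pgam2*, the muscle phosphoglycerate mutase, measured 384, 327 and 447 CPM against 381, 483 and 353 CPM. It overlapped between genotypes too, with a log2 fold change of 0.07 (SE 0.15) and an adjusted p of 0.869. *Pfkm*, the muscle phosphofructokinase that commits sugar to glycolysis, was counted very little for a muscle enzyme, with 75, 90 and 83 counts in the controls and 58, 67 and 77 in the others. At 7.12, 8.90 and 6.95 CPM against 6.95, 8.19 and 8.98 CPM, its log2 fold change was 0.07 (SE 0.19), with an adjusted p of 0.895. *Pfkm* overlaps *Senp1* at its far start, and its low count sets the precision of every statement about it. For none of these 3 genes was a difference detectable with 3 libraries against 3, and the SE leaves room for a small one in either direction.

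The genes that direct the choice of mitochondrial fuel varied most between libraries of 1 genotype. *Pdk4*, a kinase that shuts off pyruvate dehydrogenase and so spares sugar when fat is burned, measured 257, 167 and 552 CPM in OsxCre libraries 1, 2 and 3, and 202, 364 and 375 CPM in the libraries labelled OsxCre;Stat3fl/fl. Its highest control value was 3.30 times its lowest, and the log2 fold change was -0.05 (SE 0.42, adjusted p 0.971). Without OsxCre library 3 this log2 fold change was 0.56 (adjusted p 0.426), and without library 1 labelled OsxCre;Stat3fl/fl it was 0.18 (adjusted p 0.88), so its direction was not settled. *Cpt1b*, the muscle carnitine palmitoyltransferase that lets long-chain fatty acids into mitochondria, measured 13.1, 13.7 and 28.0 CPM in the controls and 10.8, 18.9 and 14.9 CPM in the others. OsxCre library 3 was again the highest, at 2.13 times the lowest control, and the log2 fold change of -0.30 (SE 0.33, adjusted p 0.713) became 0.15 without it (adjusted p 0.82). The whole span of *Cpt1b* is covered by the non-coding gene *Gm44502*, so its counts could be split or lost in the authors' counting.

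Per kilobase of exon, the order of the mean control levels was *Ckm* at 2934, *Eno3* at 852, *Fabp3* at 605, *Pgam2* at 459, *Pygm* at 164, *Ckmt2* at 121, *Fbp2* at 97.1, *Pdk4* at 92.6, *Cpt1b* at 5.42 and *Pfkm* at 2.51 CPM per kb. *Fbp2* and *Pdk4*, neighbours in this order, did not differ beyond the spread of the *Pdk4* libraries. In the libraries labelled OsxCre;Stat3fl/fl, *Ckm* stood at 4374, *Eno3* at 1238, *Pgam2* at 483, *Fabp3* at 240, *Ckmt2* at 194, *Pygm* at 181, *Pdk4* at 89.3, *Fbp2* at 32.7, *Cpt1b* at 4.41 and *Pfkm* at 2.64 CPM per kb. *Fabp3* thus came before *Pgam2* in the controls and after it in the others, and *Fbp2* came before *Pdk4* in the controls and after it in the others. *Ckmt2* and *Pygm*, neighbours in the second genotype, did not differ beyond their spread. The 10 genes together took between 0.735% and 0.822% of all counts in the controls and between 0.841% and 1.13% in the others, most of it *Ckm*.

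Within a genotype, most of the 10 genes followed the same libraries. In the controls, 7 of 10 were highest in library 3 and 7 of 10 lowest in library 2, while in the libraries labelled OsxCre;Stat3fl/fl, 7 of 10 were highest in library 2 and 6 of 10 lowest in library 3. *Fbp2* and *Pfkm* were among those that went against this in both genotypes. In the controls *Fbp2* was highest in library 1 and *Pfkm* in library 2, and both were lowest in library 3. In the others *Fbp2* was highest in library 1 and lowest in library 2, and *Pfkm* was highest in library 3 and lowest in library 1. The same libraries differed in their muscle and fat transcripts, as follows.

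Skeletal muscle was plainly present in the dissected bone. The 35 genes of 3 marker lists (fast fibre, slow fibre and shared, among them *Acta1*, the skeletal actin) took 4.65, 4.59 and 4.94% of all counts in OsxCre libraries 1, 2 and 3, and 6.03, 7.05 and 5.12% in the libraries labelled OsxCre;Stat3fl/fl, and none of the 35 was at 0 throughout. Their summed level was 46562 ± 3099 against 61942 ± 12469 CPM (SD, n = 3), a ratio of 1.33, and all 3 libraries labelled OsxCre;Stat3fl/fl lay above all controls. An exact two-sided permutation test gave p = 0.1, the smallest that 3 against 3 libraries allow. The part of this difference in the levels of the 10 genes was not tested. The sum lay on the side of *Ckm*, *Ckmt2* and *Eno3* and opposite to *Fbp2* and *Fabp3*.

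Set against this sum within each library, *Fbp2* made 3.22, 2.90 and 2.22 counts per 1000 muscle marker counts in the controls and 0.765, 0.535 and 0.870 in the others, a log2 ratio of -1.94. *Fabp3* made 10.2, 10.5 and 11.3 per 1000 against 3.32, 2.81 and 3.61, a log2 ratio of -1.72. Both differences were larger per muscle marker count than in CPM. The marker sum was itself 1.33 times the control level, which by construction moves every gene down on this scale. *Ckm* went from a mean of 89.4 to 100.02 per 1000 (log2 ratio 0.16) and *Ckmt2* from 3.84 to 4.64 (0.27), with no overlap of libraries in either. The difference of *Ckm* was thus smaller on this scale than in CPM, and *Eno3*, at 30.8 against 33.7 per 1000 (0.13), overlapped. On this scale *Pgam2*, at 8.26 against 6.58 per 1000 (log2 ratio -0.33), and *Pygm*, at 11.3 against 9.39 (-0.27), lay lower in all 3 libraries labelled OsxCre;Stat3fl/fl. In CPM both had overlapped, with log2 fold changes of 0.07 and 0.14. With the 15 shared markers alone as the denominator *Pgam2* stayed apart, *Pygm* overlapped and *Eno3* lay apart on the higher side. *Pfkm*, *Cpt1b* and *Pdk4* overlapped with either denominator. These ratios use the contrast that chose the list and are given without a test.

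**Figure D2:**
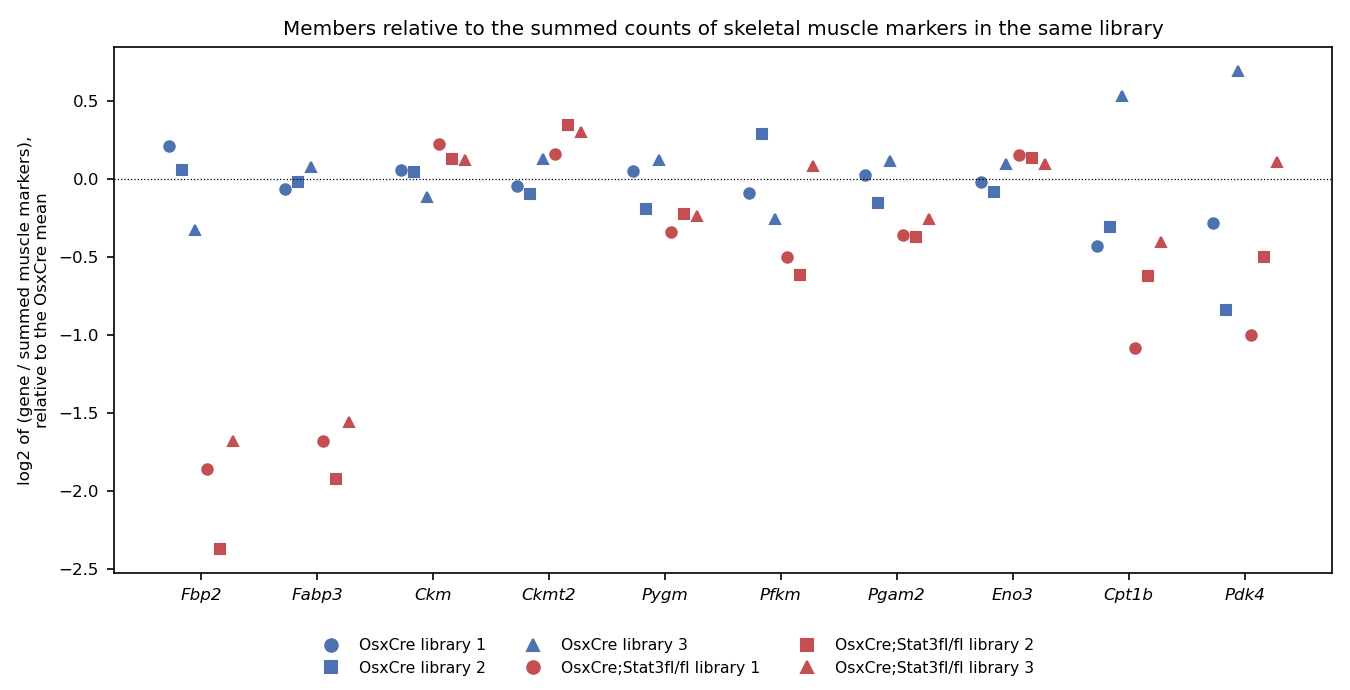
Counts of each of the 10 genes divided by the summed counts of 35 skeletal muscle markers in the same library, as a log2 value relative to the OsxCre mean, with OsxCre in blue and OsxCre;Stat3fl/fl in red and the marker shape giving the library number. The means of Fbp2 and Fabp3 lie at -1.94 and -1.72, while those of the other genes lie between -0.68 and 0.27.

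The marker lists themselves were uneven. Of the 12 fast fibre markers, 1 was called lower and 0 higher by edgeR, and their median log2 fold change was 0.50 (at an unadjusted p under 0.05, 1 lower and 7 higher; with DESeq2, 1 and 6). The gene called lower was *Myh4*, the myosin heavy chain of the fastest fibres, which measured 418, 410 and 476 CPM in the controls and 30.5, 39.0 and 37.2 CPM in the others (log2 fold change -3.61, SE 0.12, adjusted p 3.87e-05). Its difference was of the same sign as that of *Fbp2* and *Fabp3* and larger. *Mylpf*, the fast regulatory light chain and the most counted of this list, stood at 0.65 on the log2 scale (adjusted p 0.121).

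Of the 14 shared markers tested, 1 was called higher and 0 lower, with a median of 0.31 (8 higher and 2 lower at an unadjusted p under 0.05; 6 and 1 with DESeq2). It was *Myh3*, the embryonic myosin heavy chain, at 344, 297 and 381 CPM in the controls and 997, 1551 and 808 CPM in the others (log2 fold change 1.71, SE 0.23, adjusted p 0.0204). *Acta1* stood at 0.30 on the log2 scale (adjusted p 0.392). The 8 slow fibre markers all had a positive log2 fold change, with a median of 0.46, and none was called (5 higher at an unadjusted p under 0.05; 3 with DESeq2), the nearest being *Tnnc1* at 0.77 (adjusted p 0.0798). Of the 7 markers of muscle progenitors none was called, with a median of 0.24 (1 higher at an unadjusted p under 0.05, 0 with DESeq2).

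Heart muscle also makes *Fabp3* and *Ckmt2*. Of its markers, *Tnnt2*, which newborn skeletal muscle makes too, was the most counted, at between 76.6 and 168 CPM. *Nppa*, the atrial peptide, had a single count in 1 of the 6 libraries, and *Myh6*, the cardiac myosin, measured between 2.92 and 5.44 CPM in 5 libraries and 52.3 CPM in the library 2 labelled OsxCre;Stat3fl/fl. None of the 5 heart markers tested was called (1 higher at an unadjusted p under 0.05, 0 with DESeq2), and their summed level was 102 ± 4.88 against 156 ± 64.8 CPM (SD, n = 3; exact permutation p = 0.2). Of the 8 markers of osteoblasts, in whose precursors Osterix drives Cre, *Ibsp*, a bone matrix protein, was called lower (log2 fold change -0.66, adjusted p 0.0213) and none higher (2 lower and 0 higher at an unadjusted p under 0.05 and with DESeq2). *Alpl*, the alkaline phosphatase of mineralising cells, stood at -0.54 on the log2 scale (adjusted p 0.0578) and 6 of the 8 were negative. Their sum was 0.909 of the control (exact permutation p = 0.4). *Col1a1*, the main collagen of bone and the most counted of them, was at between 9875 and 15111 CPM in every library, as the labelled tissue should be.

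Transcripts of fat cells were also present, and unevenly. *Ucp1*, the uncoupling protein that defines brown fat, measured 113, 283 and 1788 CPM in OsxCre libraries 1, 2 and 3, and 137, 853 and 583 CPM in the libraries labelled OsxCre;Stat3fl/fl. *Cidea*, a lipid droplet protein of brown fat, followed with 36.6, 73.2 and 400 CPM against 65.2, 252 and 174 CPM. OsxCre library 3 was thus the richest in brown fat transcripts. The 11 adipocyte markers summed to 698, 1028 and 4219 CPM in the controls and 1056, 2943 and 2199 CPM in the others (exact permutation p = 0.9), and none of the 9 tested was called in either direction by edgeR, by DESeq2 or at an unadjusted p under 0.05. *Adipoq*, the fat cell hormone, was present in every library, at between 37.4 and 98.1 CPM. *Lep* and *Retn*, hormones of white fat, were near the floor, at 1 to 16 and 6 to 18 counts in a library.

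*Pdk4* and *Cpt1b*, which brown fat also makes, were highest in the control library with the most *Ucp1* and *Cidea*, and in the other genotype both were lowest in library 1, which had the least. The ranks did not match throughout, since *Pdk4* was lowest of the controls in library 2 and *Ucp1* in library 1, and among the libraries labelled OsxCre;Stat3fl/fl *Pdk4* was highest in library 3 and *Ucp1* in library 2. The part of fat in their values was not tested. *Fabp3* was also highest of the controls in OsxCre library 3, by a factor of 1.22 over the lowest control, and its log2 fold change was -1.23 without that library. *Fbp2* was lowest of the controls there, and its log2 fold change was -1.66 without it. The part of fat in the values of *Fabp3* and *Fbp2* was not tested either.

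**Figure D3:**
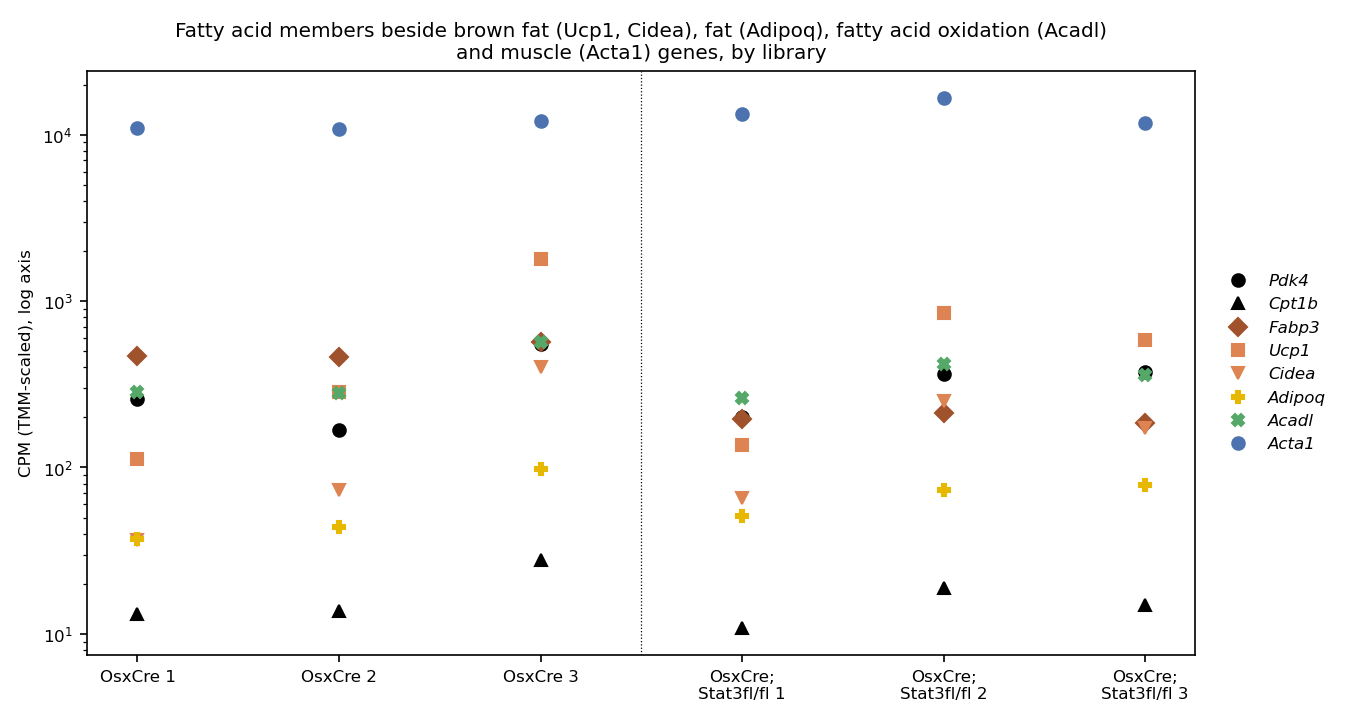
TMM-scaled CPM on a log axis in each of the 6 libraries for Fabp3, Cpt1b and Pdk4 beside Ucp1 and Cidea of brown fat, Adipoq of fat cells, Acadl of fatty acid oxidation and Acta1 of skeletal muscle. Ucp1 ranges from 113 to 1788 CPM in the controls and Pdk4 and Cpt1b are highest in the same library, whereas Fabp3 separates by genotype.

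The related isoforms of other tissues did not mirror the muscle isoforms. Of 17 such isoforms 15 were tested and none was called (0 lower and 2 higher at an unadjusted p under 0.05, 0 and 0 with DESeq2), with a median log2 fold change of 0.12. *Fbp1*, the liver fructose-bisphosphatase, had between 2 and 18 counts in a library, and so *Fbp2* made up 99.8 ± 0.134% of the family per kilobase in the controls and 98.4 ± 1.69% in the others (SD, n = 3). The highest level of *Fbp1* in any library was 2.10 CPM.

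Within the fatty acid-binding proteins the picture differed. *Fabp3* made up 44.2, 39.6 and 22.4% of *Fabp3*, *Fabp4* and *Fabp5* per kilobase in OsxCre libraries 1, 2 and 3, and 17.3, 9.72 and 10.9% in the libraries labelled OsxCre;Stat3fl/fl. The shares did not overlap, though the third control came near. *Fabp4*, the fat cell form, measured 441, 531 and 1500 CPM against 709, 1509 and 1157 CPM (log2 fold change 0.45, adjusted p 0.695), and like *Ucp1* it was highest of the controls in library 3. The share of *Fabp3* depends on *Fabp4* as well, and the part of fat in it was not tested. *Fabp5*, the epidermal form, measured 84.0, 80.6 and 81.4 CPM against 95.8, 97.8 and 86.7 CPM (log2 fold change 0.19, adjusted p 0.264).

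*Ckm* made up 94.8 ± 0.362% of cytosolic creatine kinase with *Ckb* in the controls and 96.0 ± 1.11% in the others, and *Ckmt2* made up nearly all of the mitochondrial kinase, since *Ckmt1* had between 0 and 5 counts in a library. *Eno3* made up 92.6% of enolase with *Eno1* and *Eno2* in the controls and 94.3% in the others, and *Pgam2* 97.8 and 97.7% of phosphoglycerate mutase with *Pgam1*. The share depends on the length used, which covers all annotated exons, 1689 bases for *Eno3* and 5379 for *Eno1*. In raw counts the share of *Eno3* was 80.0% in the controls and 84.2% in the others. *Pygm* held 80.7 and 80.9% of glycogen phosphorylase beside *Pygb* and *Pygl*. In these families the muscle gene was the main form in a tissue labelled as bone. *Pfkm* was the exception among the sugar enzymes in these counts, at 9.37 and 11.2% of phosphofructokinase beside *Pfkl* and *Pfkp*. In raw counts its share was 5.11 and 5.77%. It had at most 90 counts in a library. Whether reads of *Pfkm*, or of other genes in these families, were lost in the authors' counting was not tested. The shares therefore describe the deposited counts alone. *Cpt1b* held 18.1 and 15.7% beside *Cpt1a* and *Cpt1c*, and *Pdk4* 56.2 and 58.6% beside *Pdk1*, *Pdk2* and *Pdk3*, both with overlapping libraries. Without OsxCre library 3 the difference of the *Pdk4* share was 8.96 percentage points rather than 2.37, and that of *Cpt1b* was 2.72 rather than -2.44.

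**Figure D4:**
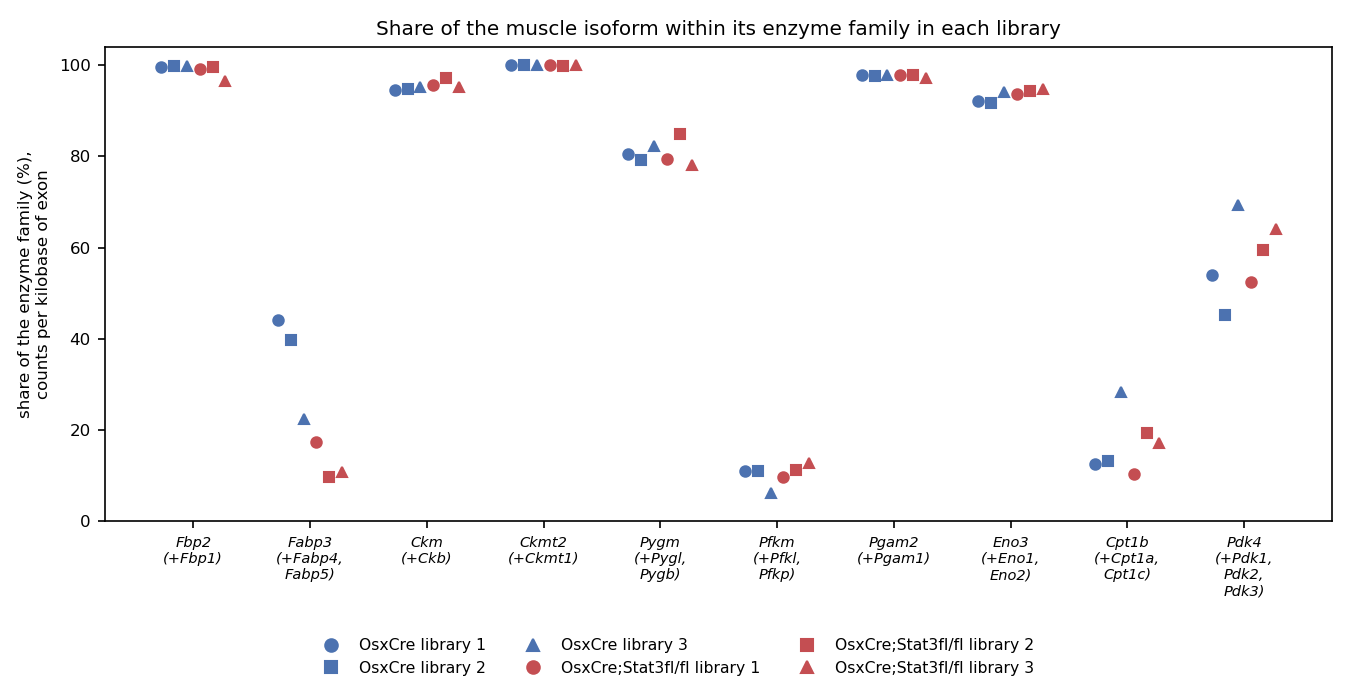
Share of each muscle gene in its family of related genes in each library, as a percentage of counts per kilobase of exon, with the other family members named in brackets, OsxCre in blue and OsxCre;Stat3fl/fl in red. Fabp3 is the gene whose share moves most, from a mean of 35.4% to 12.6%.

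Genes of the same pathways and of the marker lists were also counted. Over 16 lists with 184 different genes, 174 were tested, of which 4 (2.30%) were called lower and 3 (1.72%) higher, beside 0.481% and 0.776% of all genes. The lists were chosen with results known, so nothing is read from this difference. Outside the muscle and bone markers already named these were *Phkg1* and *Adssl1*, which fell, and *Phka1* and *Gapdh*, which rose. When each library was left out in turn, the call held in 5 of 6 fits for *Phkg1* (adjusted p 0.0816 without library 3 labelled OsxCre;Stat3fl/fl), in 1 of 6 for *Adssl1* (highest adjusted p 0.169), and in 0 of 6 for *Phka1* (adjusted p from 0.062 to 0.177) and *Gapdh* (from 0.052 to 0.138). Among the markers, it held in 6 of 6 fits for *Myh4* and in 2 of 6 for *Myh3* (highest adjusted p 0.0967) and *Ibsp* (0.105).

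In glycogen metabolism, 1 of 14 genes tested was called lower and 1 higher, with a median log2 fold change of 0.06. At an unadjusted p under 0.05 these counts were 2 and 2, with DESeq2 1 and 2, and with limma-voom 1 and 0. The genes called by edgeR both encode subunits of phosphorylase kinase, the enzyme that switches *Pygm* on. *Phkg1*, the catalytic subunit of muscle, measured 56.0, 57.7 and 63.4 CPM in the controls and 30.9, 35.7 and 34.4 CPM in the others (log2 fold change -0.81, SE 0.09, adjusted p 0.0115). *Phka1*, the regulatory alpha subunit of muscle, measured 47.6, 47.3 and 54.7 CPM against 67.2, 67.9 and 73.9 CPM (log2 fold change 0.48, SE 0.09, adjusted p 0.0498). In every library the catalytic subunit of muscle thus lay lower and the regulatory one higher, but the call of *Phka1* held in 0 of 6 left-out fits. Their counterparts of other tissues, *Phkg2* and *Phka2*, had log2 fold changes of 0.06 and 0.05 (adjusted p 0.858 and 0.844). *Ugp2*, which makes the UDP-glucose that glycogen is built from, stood at 0.24 on the log2 scale (adjusted p 0.412).

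In glycolysis and lactate handling, 15 of the 20 genes tested had a positive log2 fold change, with a median of 0.15, and 1 was called higher and 0 lower (5 and 1 at an unadjusted p under 0.05; 4 and 1 with DESeq2). *Gapdh*, the glyceraldehyde phosphate dehydrogenase, measured 124, 121 and 134 CPM in the controls and 181, 227 and 182 CPM in the others (log2 fold change 0.64, SE 0.11, adjusted p 0.0391). Its many processed pseudogenes can take reads from it, so its level is uncertain. *Aldoa*, the muscle aldolase and the most counted gene of the list, stood at 0.43 on the log2 scale (adjusted p 0.233).

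In creatine and adenylate phosphotransfer, 1 of 8 genes was called lower and 0 higher, and 7 of 8 had a negative log2 fold change, with a median of -0.07 (2 lower and 0 higher at an unadjusted p under 0.05 and with DESeq2). *Adssl1*, the muscle adenylosuccinate synthase of the purine nucleotide cycle, measured 185, 176 and 179 CPM in the controls and 103, 135 and 121 CPM in the others (log2 fold change -0.59, SE 0.10, adjusted p 0.043). *Slc25a4*, the mitochondrial ATP carrier of muscle, stood at -0.09 on the log2 scale (adjusted p 0.825). These genes work beside the creatine kinases, which lay on the higher side.

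In fatty acid uptake and oxidation, 22 of the 25 genes tested had a negative log2 fold change, with a median of -0.19 beside 0 over all genes, and none was called (3 lower and 0 higher at an unadjusted p under 0.05; 1 and 0 with DESeq2). Their summed level was 4947, 5062 and 8542 CPM in the controls and 4138, 6590 and 5372 CPM in the others (exact permutation p = 0.7). The sum was highest in the control library that was richest in *Ucp1*, and the genotypes overlapped. *Lpl*, the lipase that frees fatty acids at the vessel wall, and *Hadha*, a subunit of the trifunctional enzyme of beta oxidation, had log2 fold changes of -0.18 and -0.37 (adjusted p 0.797 and 0.434). None of these genes came near the size of the *Fabp3* difference, the most negative being *Decr1* at -0.58 (adjusted p 0.189).

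The 9 genes of the pyruvate dehydrogenase complex and its carriers, the enzyme that *Pdk4* shuts off, had a median of 0.11 and none was called (0 in either direction at an unadjusted p under 0.05 and with DESeq2). *Pdha1*, its catalytic subunit, stood at 0.19 on the log2 scale (adjusted p 0.578). The 4 muscle oxygen and respiratory isoforms, among them *Mb* (myoglobin) at -0.17 (adjusted p 0.74), had a median of -0.05, with the same counts of 0.

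Of the transcription regulators of these pathways, 10 of 13 were tested and none was called (1 lower and 2 higher at an unadjusted p under 0.05, 0 with DESeq2), with a median of 0. *Ppargc1a*, the coactivator of oxidative muscle genes, stood at -0.63 on the log2 scale (adjusted p 0.17) and *Klf15*, a regulator of muscle fuel use, 0.74 (adjusted p 0.142). Of the 11 genes that answer to the fatty acid receptors of the PPAR family, none was called (1 lower and 1 higher at an unadjusted p under 0.05, 0 with DESeq2), with a median of -0.07. *Pdk4*, *Cpt1b* and *Fabp3* are textbook targets of the same receptors. *Fabp3*, which was picked for being lower, was lower in every library, and *Pdk4* and *Cpt1b* overlapped between genotypes. The part of these receptors in the levels of these genes was not tested.

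**Figure D5:**
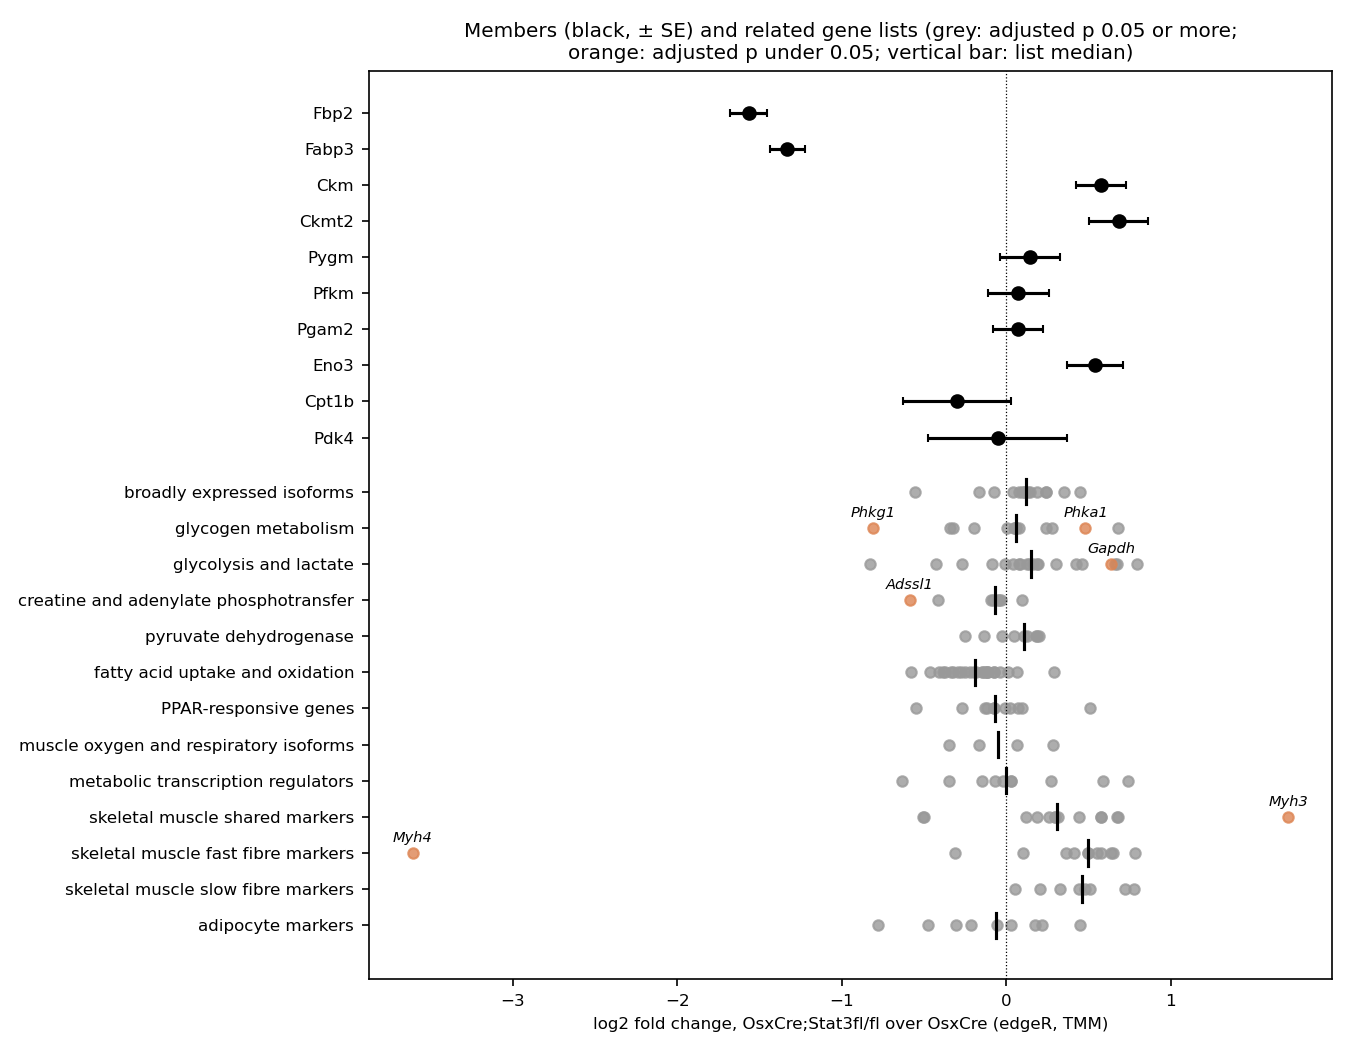
Log2 fold change of OsxCre;Stat3fl/fl over OsxCre for the 10 genes (black, ± SE) and for the genes of 13 related lists (1 point per gene, orange where the adjusted p was under 0.05, black tick the list median). Fbp2 and Fabp3 stand at -1.57 and -1.33, apart from the other 8 genes, while Myh4 at -3.61 and Myh3 at 1.71 are the extremes.

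The genes whose levels most resembled *Fbp2* over the 6 libraries, by Pearson correlation of log2 CPM, were *Zfp719* (0.999), *Dnajb11* (0.998), *Clmp* (0.996), *Rpa2* (0.993) and *Slfn8* (0.993). Those most like *Fabp3* were *Exosc3* (0.998), *Casd1* (0.997), *Gm8797* (0.994), *Naa30* (0.994) and *Pkia* (0.993). Between *Fbp2* and *Fabp3* it was 0.952, and between *Fbp2* and the creatine kinases -0.867 (*Ckm*) and -0.875 (*Ckmt2*). The 6 libraries fall into 2 genotypes, so a high value says mainly that a gene separated them in the same direction, and the size of the difference could be far smaller, as with a log2 fold change of -0.27 for *Clmp*.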

How the data were processed

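Parietal bone RNA of 3 OsxCre and 3 OsxCre;Stat3fl/fl newborn littermates was sequenced, as polyadenylated RNA per the labels and total RNA per the methods. The authors deposited unnormalized whole-number counts per gene for 44556 symbols in each library. The submitters' processing notes name HISAT2 and GRCm38, whereas the methods name TopHat and mm9; the counting program and annotation are not given in the sources used here. Genotypes and replicate numbers came from the labels.

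Counts were filtered (edgeR's filterByExpr, minimum count 10, minimum total 15), scaled by TMM and compared by the two-sided quasi-likelihood test of edgeR on 15600 genes, with p-values adjusted by Benjamini-Hochberg and a threshold of 0.05 (R 4.3.3, edgeR 4.0.16, limma 3.58.1, DESeq2 1.42.0, Python 3.11.15, pandas 2.3.3, matplotlib 3.10.9). P-values measure the spread among these littermates. Summed markers were compared by exact permutation tests, whose smallest p is 0.1, and scripts were tested on simulated data. Exon lengths came from GENCODE on NCBIM37, and positions and start regions from RefSeq.

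The 10 genes and all lists were chosen with earlier results of these data known. Named were these genes, *Stat3*, genes of each list past the threshold (at most 4), the most counted genes of each list, isoforms of other tissues and the 5 genes most like *Fbp2* and *Fabp3*. *Decr1*, *Tnnc1*, *Ppargc1a*, *Klf15*, *Ucp1*, *Cidea*, *Adipoq*, *Phkg2*, *Phka2*, *Hadha*, *Mb*, *Nppa*, *Myh6*, *Lep*, *Retn* and *Alpl* were named after their values were seen. The alternatives were other scalings, no filter or a filter on mean count, DESeq2, limma-voom, the replicate number as a block, and leaving out each library. Same-numbered libraries were different animals.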

Additional observations from a re-analysis of the deposited data

How the results depend on the processing

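The list was chosen from the calls of *Fbp2* and *Fabp3* in this contrast, so that these calls recur across settings is no support for them. The replicate block called 0 members lower, with log2 fold changes of -1.56 for *Fbp2* and -1.33 for *Fabp3*. It left 1 gene lower and 0 higher of all genes, and 1 and 0 of the pathway genes. Whether the replicate numbers mark pairs is not given by the labels. The deviations of same-numbered libraries from their genotype means correlated at -0.101, -0.518 and -0.085. By this measure 0 of 6 libraries correlated best with their own number. With 3 libraries per genotype these correlations cannot exclude pairing, so the fit with the replicate block is not set aside. Members called higher, a count added after seeing the data, were 1 with no filter (*Ckmt2*, adjusted p 0.0321) and 3 with DESeq2 (*Ckm*, *Ckmt2* and *Eno3*).

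Of all genes, 75 were called lower and 121 higher. Library totals gave 114 lower, no scaling 5451 lower, no filter 178 and 250, DESeq2 235 and 304, and leaving out 1 library 5 to 36 and 7 to 67, the lowest without library 3 labelled OsxCre;Stat3fl/fl. Of the pathway and marker genes, 4 were lower and 3 higher. No scaling gave 29 and 1, no filter 7 and 8, DESeq2 9 and 21, and leaving out 1 library 1 to 4 and 0 to 3. Apart from the samples and tests these alternatives change by construction, the cause was not tested.

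Without scaling, the median of all genes was -0.38 on the log2 scale, and *Pygm* (-0.25), *Pfkm* (-0.30) and *Pgam2* (-0.32) turned negative but lay above that median. *Pdk4* was 0.08 with limma-voom and 0.06 under the block. Without 1 library, log2 fold changes ranged from -0.05 to 0.26 for *Pygm* (negative without library 2 labelled OsxCre;Stat3fl/fl), -0.01 to 0.19 for *Pfkm* (negative without library 3 of that label), -0.07 to 0.19 for *Pgam2* (negative without library 2 of either genotype), -0.50 to 0.15 for *Cpt1b* (positive without OsxCre library 3) and -0.37 to 0.56 for *Pdk4* (positive without OsxCre library 3 or library 1 labelled OsxCre;Stat3fl/fl). The ratio of summed muscle markers between genotypes was 1.33 and ranged from 1.18 to 1.45 without 1 library, from 1.28 to 1.34 under the other scalings, and was 1.02 (exact permutation p = 0.8) without scaling. The isoform share of *Eno3* differed by 4.18 percentage points in raw counts against 1.73 per kilobase. Depth limits *Pfkm* and *Cpt1b* most, with at most 90 and 334 counts in a library.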
